A study of Mus musculus with 6 samples.

Results

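The small leucine-rich proteoglycans described here are 10 genes of the mouse, Dcn, Bgn, Aspn, Fmod, Lum, Prelp, Omd, Ogn, Podn and Podnl1, out of 54356 genes to which the sequenced transcripts belong. They were taken by symbol from the GENCODE M21 annotation, and the estimated counts of their transcripts were summed per gene in each library. The family was chosen by its summed counts in cold against ctrl libraries, already known when it was put forward, so the members' values are given as a description, and no test of them is used as evidence.

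Small leucine-rich proteoglycans are secreted proteins with a core of leucine-rich repeats that lies against collagen fibrils in the extracellular matrix. Many of them carry chondroitin or dermatan sulfate chains, others keratan sulfate chains, and some circulate in the matrix with few or no chains. They set the spacing and width of collagen fibrils and hold growth factors of the TGF-beta family in the matrix. In white fat the matrix around adipocytes is laid down largely by fibroblasts and adipocyte progenitors, and decorin and lumican are widely used to recognise such stromal cells.

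Polyadenylated RNA of epididymal white adipose tissue, the visceral fat pad beside the epididymis, was sequenced from 6 wild type male mice of the C57BL/6N strain at an age of 20 weeks. The cold group holds 3 mice (cold 7, cold 12 and cold 16), and the treatment text gives 24 h at 4 °C in single housing before the tissue was taken. The ctrl group holds another 3 mice (ctrl 5, ctrl 6 and ctrl 10), with general housing given as 22 to 24 °C. That treatment text is attached to every library, and the word cold or ctrl in the labels is what separates the groups. Each library is a whole fat pad of 1 mouse, so fewer cells of a type and less RNA per cell cannot be told apart in any difference below.

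Libraries held 22903050, 25142603 and 28608052 estimated counts in cold mice and 24176464, 22969181 and 19735167 in ctrl mice. The adipocyte hormone gene Adipoq was at 2073 to 2196 CPM (counts scaled to a common library size, with TMM factors) in cold libraries and at 2108 to 2384 CPM in ctrl libraries, and all 10 adipocyte markers examined were detected in every library. Markers of motile cilia and of duct epithelium, which adipocytes lack, were far from equal between the groups. Their values stand beside the members' values further on.

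Start regions are shown for Podn and Prelp, whose CPM was lower in every cold library than in any ctrl library, and for Fmod, which varied widely among libraries. They are RefSeq windows on GRCm38.p6 that run from 250 bases before to 50 bases after an annotated start, written 5' to 3' on the gene's strand. Windows were matched for 7 of the 10 members (Podn, Prelp, Fmod, Bgn, Aspn, Ogn and Omd). Capitals mark a GC box (GGGCGG on either strand) in Podn and a CCAAT box (CCAAT on either strand) in Prelp and Fmod.
Podn, chr4:108031905-108032204, minus strand: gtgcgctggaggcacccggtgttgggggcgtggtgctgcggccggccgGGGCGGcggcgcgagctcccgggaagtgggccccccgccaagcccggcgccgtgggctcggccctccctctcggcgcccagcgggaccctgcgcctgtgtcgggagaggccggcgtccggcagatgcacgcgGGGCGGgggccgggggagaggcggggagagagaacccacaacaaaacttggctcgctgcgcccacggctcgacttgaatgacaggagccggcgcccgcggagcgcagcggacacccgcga
Prelp, chr1:133921352-133921651, minus strand: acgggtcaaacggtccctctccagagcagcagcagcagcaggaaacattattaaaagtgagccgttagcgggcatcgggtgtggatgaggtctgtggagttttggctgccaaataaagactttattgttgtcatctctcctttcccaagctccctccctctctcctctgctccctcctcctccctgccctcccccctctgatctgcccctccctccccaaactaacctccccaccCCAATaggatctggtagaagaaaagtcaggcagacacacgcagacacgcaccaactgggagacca
Fmod, chr1:134037004-134037303, plus strand: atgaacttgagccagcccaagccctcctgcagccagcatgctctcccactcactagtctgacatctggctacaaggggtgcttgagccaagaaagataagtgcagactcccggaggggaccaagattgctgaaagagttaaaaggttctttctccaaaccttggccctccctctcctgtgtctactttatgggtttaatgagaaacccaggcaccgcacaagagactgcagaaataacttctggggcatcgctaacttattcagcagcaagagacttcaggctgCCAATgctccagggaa
The Podn window shown was 77.0% G or C, against a median of 52.7% over 32851 windows of this length, and held 2 GC boxes. It contains the starts of Podn-202, Podn-203 and Podn-206, which made up 71.2% of the gene's TPM (a level scaled for transcript length and depth). Another RefSeq window of Podn, chr4:108030937-108031236, at the start of Podn-208 (10.1% of TPM), was 63.0% G or C and held no GC box. The Prelp window was 55.3% G or C and the Fmod window 51.0%, each with 1 CCAAT box. That of Prelp lies just before the RefSeq start, whereas that of Fmod lies after the start, in the transcribed part of the window.

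A GC box occurred in 35.7% of all windows, a CCAAT box in 37.4% and a TATA box (TATAAA on either strand) in 13.6%. Among the other members, the Bgn window was 63.7% G or C with 3 GC boxes, of which a pair shares bases. The Aspn window was 31.0% G or C with 1 CCAAT box and 2 TATA boxes. The Ogn window was 42.3% G or C with 2 TATA boxes that share bases, and the Omd window, at 37.7%, held none of these motifs. These are matches of letters, and binding was not measured.

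Read per length, decorin transcripts were the most abundant of the family and podocan-like transcripts the least. Mean TPM over the 6 libraries was 751 for Dcn, 395 for Prelp, 222 for Bgn, 123 for Podn, 65.0 for Ogn, 35.9 for Lum, 29.8 for Aspn, 24.4 for Fmod, 1.30 for Omd and 0.604 for Podnl1. Dcn stood at place 144 among all genes by TPM and made up 45.6% of the family's TPM, and Prelp, at place 318, made up 24.0%. The range of TPM over libraries did not overlap between Dcn and Prelp, Prelp and Bgn, Bgn and Podn, Ogn and Lum, or Fmod and Omd. Ranges did overlap between Podn and Ogn, Lum and Aspn, Aspn and Fmod, and Omd and Podnl1, and Aspn was above Fmod in 4 of the 6 libraries. The order of the 10 genes by mean TPM was the same in cold and in ctrl libraries.

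**Figure D1:**
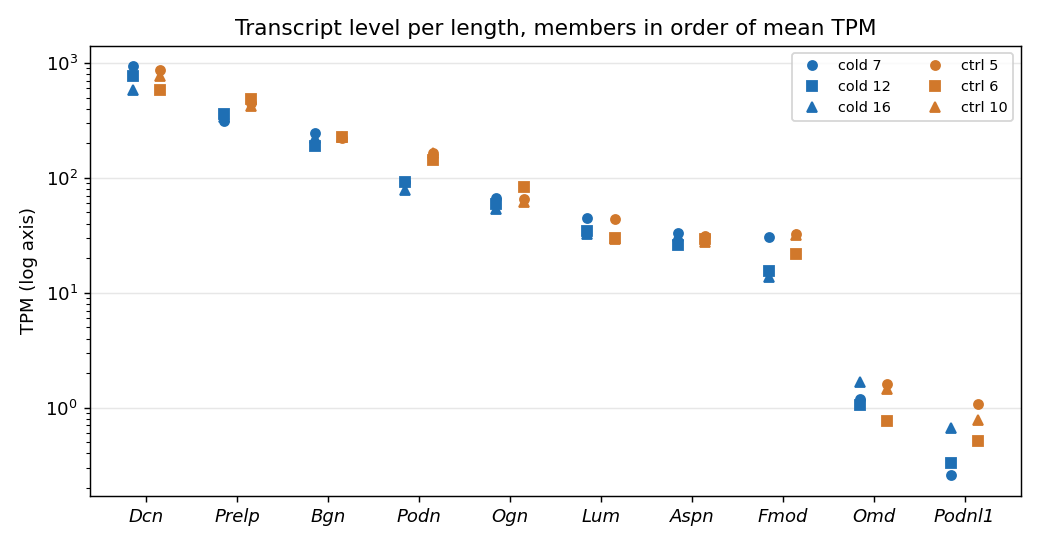
TPM of each member (log axis) in every library, with cold libraries left of ctrl libraries and genes in order of their mean over the 6 libraries. Dcn, at 579 to 935 TPM, lies above all other members, and Omd and Podnl1 lie at or below 1.67 TPM.

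Summed over the family, TPM was 1766, 1548 and 1359 in cold 7, cold 12 and cold 16, against 1879, 1601 and 1734 in ctrl 5, ctrl 6 and ctrl 10. The groups overlapped, since cold 7 lay above ctrl 6 and ctrl 10. Summed as CPM, on the count scale by which the family was chosen, it was at 2573, 2335 and 2234 in cold libraries, against 2808, 2613 and 2685 in ctrl libraries. On that scale each cold library lay below every ctrl library. Prelp and Dcn weigh most in this sum. Mean CPM was 840.5 in cold and 1092 in ctrl mice for Prelp, and 166 and 276 for Podn. For Dcn it was 851 in cold and 809 in ctrl mice. Only Prelp and Podn were lower in each cold library, and 4 members had a positive log2 fold change. The family took 0.136 to 0.177% of all TPM in cold libraries and 0.160 to 0.188% in ctrl libraries. Within each library, Podn stood at 9.88, 11.9 and 13.4 TPM per 100 TPM of Dcn in cold mice and at 19.0, 24.7 and 21.5 in ctrl mice. The podocan to decorin proportion was thus lower in each cold library than in any ctrl library. Prelp gave 33.8, 46.4 and 58.4 TPM per 100 TPM of Dcn in cold mice and 51.3, 84.0 and 55.4 in ctrl mice, and there the groups overlapped.

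Decorin, biglycan and asporin form the class of the family around decorin. Decorin and biglycan carry chondroitin or dermatan sulfate chains, and asporin lacks the usual attachment site for them. Cold and ctrl libraries overlapped for each of these genes. Dcn (chr10:97479609-97518143) encodes decorin, which binds collagen I fibrils and TGF-beta. It was at 1020.2, 845 and 688 CPM in cold 7, cold 12 and cold 16, against 937, 648 and 843 CPM in ctrl 5, ctrl 6 and ctrl 10. Each group held both a high and a low library, and the means were 851 ± 166 CPM in cold mice and 809 ± 147 CPM in ctrl mice (SD, n = 3 each). The fitted log2 fold change of cold over ctrl was 0.07 (SE 0.18), and it ran between -0.08 and 0.20 when 1 library was left out, so its sign depended on the libraries kept.

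Bgn (chrX:73483602-73495933) encodes biglycan, a close relative of decorin that also signals to Toll-like receptors when released. It was at 336, 240.1 and 292 CPM in cold libraries, against 275, 266 and 273 CPM in ctrl libraries. The ctrl mice were nearly alike, at 271 ± 4.57 CPM, while the cold mice spread to both sides of them, at 290 ± 48.2 CPM (SD, n = 3 each). The log2 fold change was 0.10 (SE 0.12), and it was -0.03 by the ratio of mean TPM.

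Aspn (chr13:49544443-49567565) encodes asporin, whose core has a run of aspartate near its start and which binds TGF-beta in cartilage. It was at 42.7, 34.5 and 46.4 CPM in cold libraries, against 40.3, 39.9 and 36.4 CPM in ctrl libraries. As with biglycan, the lowest and the highest library were both cold, and the log2 fold change was 0.08 (SE 0.11).

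**Figure D2:**
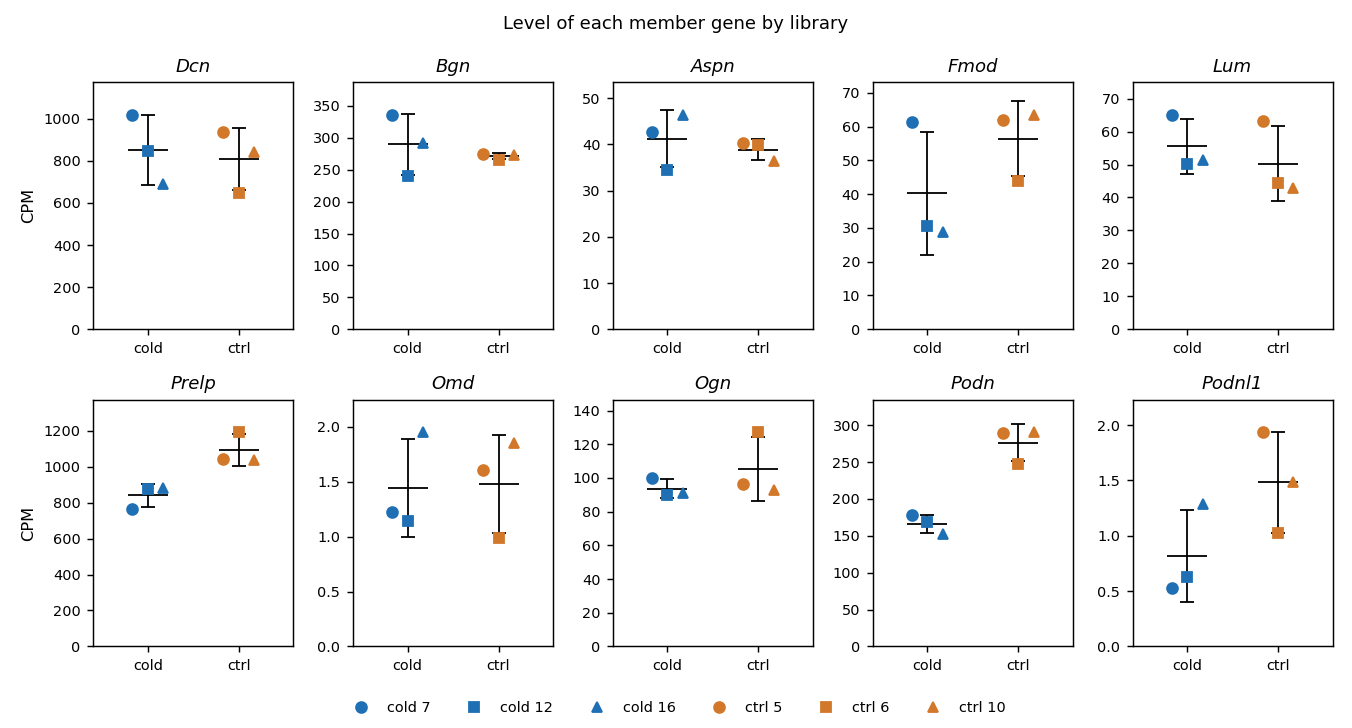
CPM of each member in every library, with the mean and SD of each group (n = 3), cold left of ctrl, each panel with its own axis from 0. In Podn and Prelp all cold points lie below all ctrl points, at most 178 and 879.9 CPM against at least 247 and 1039.6 CPM, and in the other panels the groups overlap.

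Fibromodulin, lumican, PRELP and osteomodulin form the branch of the family known for keratan sulfate chains or for tyrosine sulfate near the start of the protein. Of these, Prelp (chr1:133910304-133921414) was lower in each cold library. PRELP binds heparan sulfate and collagen and is thought to tie basement membranes to the collagen beneath. Its level was 767, 875 and 879.9 CPM in cold 7, cold 12 and cold 16, against 1042, 1194 and 1039.6 CPM in ctrl 5, ctrl 6 and ctrl 10. The groups did not overlap, with means of 840.5 ± 63.7 CPM in cold mice and 1092 ± 88.6 CPM in ctrl mice (SD, n = 3 each). The log2 fold change was -0.38 (SE 0.10), a ratio of 0.770, and it ran between -0.41 and -0.30 when 1 library was left out. In TPM the groups were apart as well, at 338 ± 21.4 in cold mice and 452 ± 31.7 in ctrl mice.

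Fmod (chr1:134037254-134048277) encodes fibromodulin, which guides collagen cross-linking. It was at 61.4, 30.4 and 28.8 CPM in cold 7, cold 12 and cold 16, against 62.0, 43.8 and 63.6 CPM in ctrl 5, ctrl 6 and ctrl 10. Cold 7 lay with ctrl 5 and ctrl 10, whereas cold 12 and cold 16 lay below all ctrl libraries. The log2 fold change was -0.49 (SE 0.34), and without cold 7 it was -0.93, the lowest value when any 1 library was left out. Without cold 7 and ctrl 5 together it was -0.85.

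Lum (chr10:97565128-97572703) encodes lumican, best known for the even fibrils of the transparent cornea. It was at 65.2, 50.0 and 51.5 CPM in cold libraries, against 63.3, 44.5 and 43.0 CPM in ctrl libraries. Cold 7 and ctrl 5 were the highest of their groups, and the groups overlapped, with a log2 fold change of 0.14 (SE 0.17).

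Omd (chr13:49582462-49592822) encodes osteomodulin, a bone matrix protein, and was close to the floor of these libraries. It had 28.2, 28.7 and 55.8 counts in cold libraries, against 39.0, 22.3 and 36.4 counts in ctrl libraries. These are 1.23, 1.14 and 1.96 CPM in cold libraries and 1.61, 0.98 and 1.85 CPM in ctrl libraries. With so few counts the groups overlapped widely, and the log2 fold change was -0.03 (SE 0.35).

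Ogn (chr13:49608046-49624501) encodes osteoglycin, also called mimecan, whose core has fewer repeats than that of decorin and which takes part in collagen fibril formation. It was at 100.05, 90.2 and 90.9 CPM in cold libraries, against 96.1, 127 and 92.7 CPM in ctrl libraries. Ctrl 6 was the high one, and the remaining 5 libraries lay between 90.2 and 100.05 CPM. Fitted over all libraries, its log2 fold change was -0.17 (SE 0.12), and without the single library that lowers it most it was -0.003.

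Podn showed the clearest separation of the family. Podn (chr4:108014791-108096445) encodes podocan, first described in the podocytes of the kidney and, in vascular smooth muscle of the mouse, a brake on cell growth and migration. Its level was 178, 168 and 153 CPM in cold 7, cold 12 and cold 16, against 290.0, 247 and 291 CPM in ctrl 5, ctrl 6 and ctrl 10. The highest cold library lay well below the lowest ctrl library, and the means were 166 ± 12.5 CPM in cold mice and 276 ± 24.9 CPM in ctrl mice (SD, n = 3 each). The log2 fold change was -0.73 (SE 0.09), a ratio of 0.603, with a range of -0.80 to -0.68 when 1 library was left out. By TPM the means were 87.4 ± 7.93 in cold mice and 158 ± 12.7 in ctrl mice, a log2 ratio of -0.85.

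Podnl1 (chr8:84125989-84132527) encodes the podocan-like protein, the nearest relative of podocan. It had 12.0, 16.0 and 37.0 counts in cold libraries, against 47.0, 23.0 and 29.2 counts in ctrl libraries. In CPM that was 0.53, 0.63 and 1.29 in cold libraries and 1.94, 1.03 and 1.49 in ctrl libraries, so cold 16 lay among the ctrl libraries. The log2 fold change of -0.85 (SE 0.42) therefore rests on few counts and overlapping groups. On average 83.6% of its TPM in cold libraries and 84.2% in ctrl libraries came from Podnl1-202, a transcript with a retained intron and no annotated protein.

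Across the family, 4 members had a positive and 6 a negative log2 fold change, and the median was -0.10, against -0.01 over the 17852 genes tested. All 10 members passed the filter on low counts. In the fit over all genes (edgeR quasi-likelihood test, called at a Benjamini-Hochberg adjusted p under 0.05), 1 of the 10 members, Podn, was called, against 2.89% of all genes in either direction with 0.566% of all genes called lower and 2.32% called higher. That count comes from the contrast by which the family was chosen and nothing is read from it. The call of Podn was absent without cold 12, cold 16, ctrl 6 or ctrl 10, when 0 to 3 of all genes were called (2546 to 3071 at an unadjusted p under 0.05). Lower CPM with no overlap between groups was seen for 2 of 10 members, against 11.0% of all genes (23.8% in either direction).

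**Figure D3:**
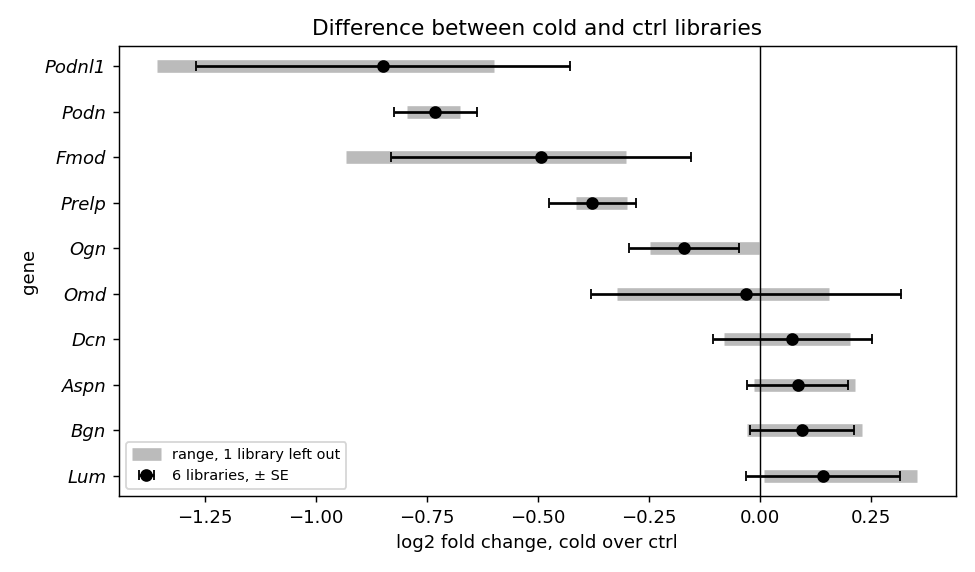
Log2 fold change of cold over ctrl for each member, as the fitted value over 6 libraries with its SE (points and bars) and as the range when 1 library is left out (grey). Podn at -0.73 and Prelp at -0.38 have narrow ranges below 0, whereas Fmod and Podnl1 have wide ones and Dcn, Bgn, Aspn and Omd cross 0.

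The libraries did not order the members in 1 way. Cold 7 held the highest value of Dcn, Bgn and Lum, while for Prelp it held the lowest. Ctrl 6 held the lowest value of Dcn and of Omd and the highest value of Prelp and Ogn. Between libraries, Podnl1 varied most on the log2 CPM scale (SD 0.67 over the 6 libraries), followed by Fmod (0.53) and Podn (0.41). Within groups Fmod kept an SD of 0.48 and Podn only 0.12, so most of the variation in Podn lay between the groups.

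For Fmod and Podn, the most variable members with a mean of at least 5 CPM, the genes with the most similar profile over the 6 libraries were found among 11166 genes as those with the smallest root mean square difference of centred log2 CPM. Nearest to Podn were Ccdc159 (0.05), Sema5a (0.05), Slco2b1 (0.07), Mst1r (0.08) and Rapgef5 (0.09). Sema5a, a membrane-bound semaphorin, was at 24.8, 25.0 and 20.5 CPM in cold libraries, against 39.2, 34.2 and 39.5 CPM in ctrl libraries. Slco2b1, a transporter of organic anions, was at 119, 130.5 and 109.7 CPM in cold libraries, against 213, 185 and 216 CPM in ctrl libraries. Like Podn, both were lower in each cold library, which the choice of genes by profile sets.

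Nearest to Fmod were Ptafr (0.12), Gas1 (0.12), Mroh2a (0.13), Fst (0.14) and Retnla (0.15). Fst, which encodes the activin-binding protein follistatin, was at 9.23, 5.03 and 5.62 CPM in cold libraries, against 9.13, 6.84 and 10.5 CPM in ctrl libraries. Gas1, which encodes a co-receptor of Hedgehog signals, was at 120.4, 69.5 and 66.7 CPM in cold libraries, against 137, 80.5 and 128 CPM in ctrl libraries. In both, cold 7 lay with ctrl 5 and ctrl 10, and cold 12, cold 16 and ctrl 6 were low. Here too the choice of genes by profile sets the pattern.

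At the level of transcripts, decorin divided its RNA between a pair of transcripts with different first exons and the same protein of 354 residues. Their annotated starts lie at positions 97479609 (Dcn-201) and 97482367 (Dcn-202) of chromosome 10, 2758 bases apart. Dcn-201 held 64.7, 61.5 and 64.7% of the gene's TPM in cold libraries, against 59.3, 55.1 and 59.0% in ctrl libraries. Dcn-202 held 34.9, 38.1 and 34.1% in cold libraries, against 40.3, 44.4 and 40.4% in ctrl libraries. The share of Dcn-201 was thus higher in each cold library while the gene's total overlapped between groups, with means of 63.7 ± 1.83% in cold mice and 57.8 ± 2.31% in ctrl mice (SD, n = 3 each).

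Asporin is likewise divided between Aspn-201 and Aspn-202, both coding for 373 residues. Aspn-202 held 14.5, 11.1 and 16.9% of the gene's TPM in cold libraries, against 10.0, 10.6 and 7.08% in ctrl libraries, with no overlap. Those shares rest on 98.8 to 228 estimated counts in cold libraries and 50.6 to 99.0 in ctrl libraries. In biglycan, the short noncoding Bgn-208 held 3.85, 13.1 and 16.1% in cold libraries and 11.2, 20.6 and 17.7% in ctrl libraries, which overlap.

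Podocan was divided among several transcripts. The coding transcript Podn-202 was the largest part, at 37.3, 41.9 and 33.7% of the gene's TPM in cold libraries and 37.0, 34.7 and 29.6% in ctrl libraries. Podn-201, which starts far upstream inside the neighbouring gene Scp2, held 0, 0 and 25.6% in cold libraries and 5.13, 10.3 and 15.8% in ctrl libraries, so it was listed at 0 in cold 7 and cold 12. These shares are Salmon's estimates of how reads divide among overlapping transcripts. The short noncoding Podn-204 held 5.36 ± 1.77% in cold mice and 9.33 ± 1.27% in ctrl mice, without overlap and on 12.0 to 48.9 counts per library. In TPM, Podn-202 was at 34.4, 38.4 and 26.4 in cold libraries and at 61.1, 49.5 and 48.8 in ctrl libraries, lower in every cold library like the gene as a whole.

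**Figure D4:**
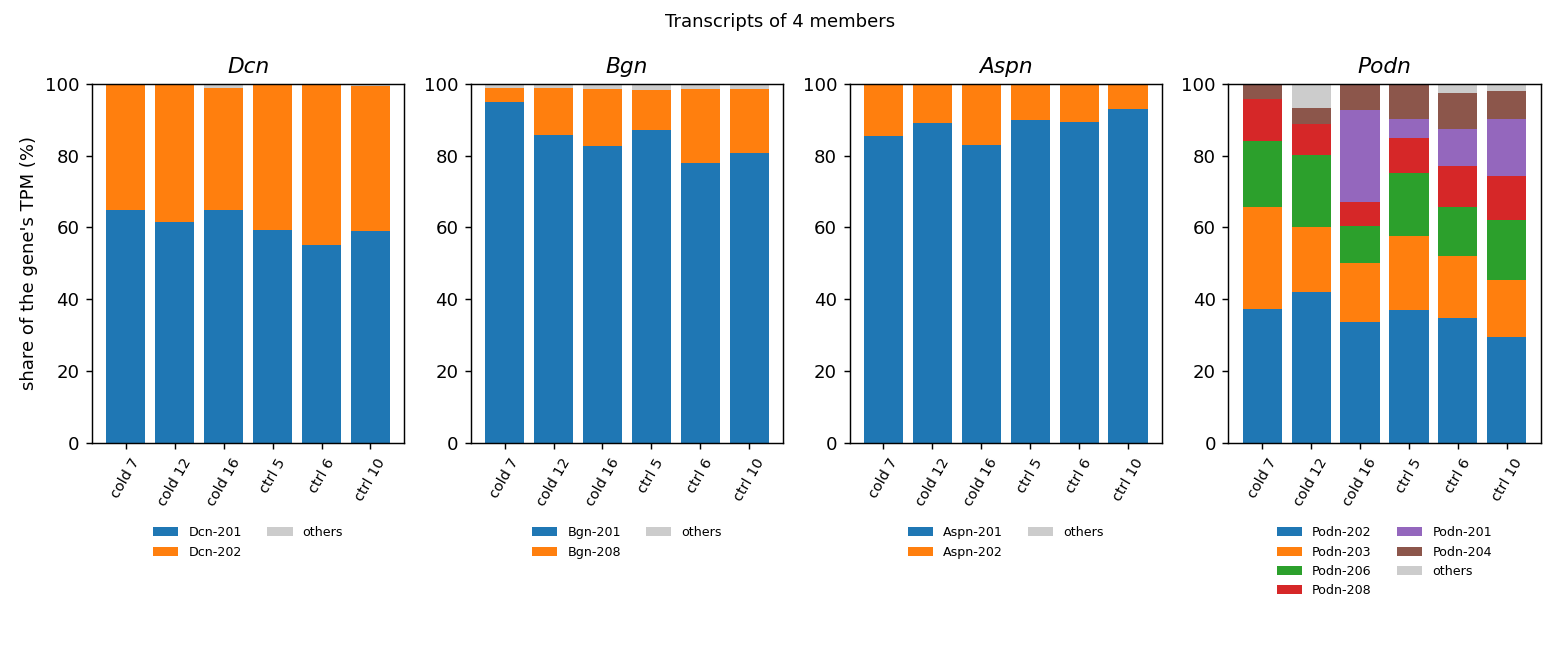
Share of each gene's TPM (percent) held by its transcripts in every library for Dcn, Bgn, Aspn and Podn, cold libraries left of ctrl libraries; transcripts outside the drawn ones are grey. Dcn-201 lies at 61.5 to 64.7% in cold libraries and at 55.1 to 59.3% in ctrl libraries.

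Of 12 member transcripts with a mean share of 5 to 95% in genes of at least 5 TPM, 5 had shares that did not overlap between groups, against 10.3% of such transcripts over all genes. Since Dcn and Aspn each have only a pair of such transcripts, whose shares mirror each other, these 5 are not separate observations, and nothing is read from the count. Lum and Ogn have a single annotated transcript, and Fmod-201 and Prelp-201 held nearly all of the TPM of their genes.

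Most members lie in clusters with relatives of the same family. On chromosome 10 Dcn and Lum are neighbours of Kera and Epyc, on chromosome 13 Ecm2, Aspn, Omd and Ogn follow each other, and on chromosome 1 Optc and Prelp lie 2304 bases apart with Fmod beyond them. No other protein-coding gene lies wholly in the gaps between the neighbours named, although Cenpp, on the opposite strand, spans the whole stretch of chromosome 13 from Aspn to Ogn. Neighbours were at unlike levels: Prelp averaged 395 TPM and Fmod 24.4, and Ogn averaged 65.0 TPM and Omd 1.30.

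Overlapping genes touch several members, and the strand setting of the counting was not given. Cenpp was at 0.43 to 1.09 CPM in cold libraries and 0.46 to 1.34 CPM in ctrl libraries, a level close to that of Omd itself. The antisense gene Gm15851 at Prelp was at 0.70 to 0.79 CPM in cold libraries and 0.31 to 1.07 CPM in ctrl libraries, far under Prelp. Scp2, on the same strand as Podn, was at 756 to 777 CPM in cold libraries and 755 to 807 CPM in ctrl libraries, and the groups overlapped. How reads were divided between Scp2 and Podn was not tested.

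Markers of other cell types were set beside the members. The summed CPM of 7 smooth muscle and pericyte markers was 942, 899.7 and 1032 in cold libraries, against 1102, 1135 and 1153 in ctrl libraries. The sum was lower in each cold library, and most of that lay in Rgs5, a pericyte gene, at 295, 299 and 395 CPM in cold libraries, against 485, 558 and 434 CPM in ctrl libraries. Without Rgs5, a sum formed after the values were seen, the other 6 markers gave 646, 601 and 637 in cold libraries, against 617, 577 and 719 CPM in ctrl libraries, and the groups overlapped. In that list Notch3, a receptor of mural cells, fell by 0.36 on the log2 scale (SE 0.07, edgeR quasi-likelihood test, Benjamini-Hochberg adjusted p = 0.0447). Acta2, Tagln and Cnn1, contractile genes of smooth muscle, had log2 fold changes of 0.28, 0.21 and 0.49 (SE 0.24, 0.15 and 0.34). Myh11, also contractile, was at -0.005 (SE 0.095). Pdgfrb was at -0.10 (SE 0.07) and lower in each cold library. Of the list, only Notch3 was called. The 6 endothelial markers summed to 989.8, 1059 and 1210 CPM in cold libraries, against 1263, 1301 and 1240.5 CPM in ctrl libraries, without overlap. Their log2 fold changes were uneven, from -0.37 in Tie1 to -0.03, and 0 were called. Singly, only Tie1 and Cdh5 were lower in each cold library. None of these 13 markers was at 0 in any library, and their part in the lower Podn and Prelp was not tested.

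The 8 mesothelial markers, from the lining of the fat pad, summed to 304, 96.5 and 103 CPM in cold 7, cold 12 and cold 16, against 294, 127 and 331 CPM in ctrl 5, ctrl 6 and ctrl 10. Cold 7, ctrl 5 and ctrl 10 were high and the remaining libraries low, the same split as in Fmod. No mesothelial marker was at 0 in any library, and the part of mesothelium in the Fmod values was not tested. The 12 fibroblast and progenitor markers summed to 1131, 769 and 799 CPM in cold libraries, against 961, 656 and 951 CPM in ctrl libraries. They were highest in cold 7 and lowest in ctrl 6, as Dcn was, and of their members Sema3c rose (log2 fold change 0.46). This sum, too, was higher in cold 7, ctrl 5 and ctrl 10 than in the remaining libraries. The summed CPM of the collagens given further on split in the same way, so the split of Fmod was not particular to the mesothelial markers.

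The 10 adipocyte markers summed to 42075, 40123 and 39891 CPM in cold libraries, against 38230, 43894 and 41157 CPM in ctrl libraries, with Lep called higher and Cfd called lower. The 6 macrophage markers summed to 391 to 710 CPM in cold libraries and 541 to 599 CPM in ctrl libraries, and the 6 Schwann cell markers to 43.7 to 49.8 CPM in cold libraries and 42.5 to 55.9 CPM in ctrl libraries. Motile cilium markers, of which 7 of 8 matched a symbol, summed to 50.3, 151 and 129 CPM in cold libraries, against 22.0, 5.50 and 3.08 CPM in ctrl libraries. Duct epithelium markers (7 genes) summed to 84.2, 183 and 161 CPM in cold libraries, against 28.4, 6.97 and 9.04 CPM in ctrl libraries. All 7 tested genes of each list were higher in every cold library, with Tekt1, Ccdc39, Rsph1, Grhl2 and Cdh1 called, and up to 2 markers of a list were at 0 in a ctrl library. Since 0 of all genes were called without cold 12, ctrl 6 or ctrl 10, the calls among markers were absent there too. The part of such cells in the members' values was not tested.

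**Figure D5:**
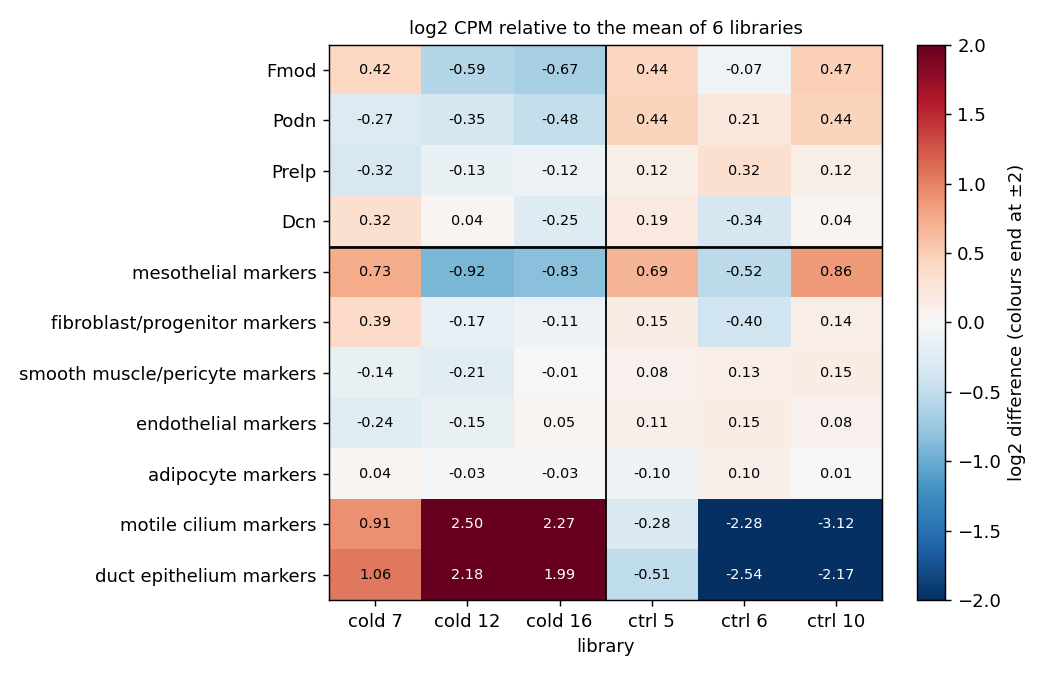
Log2 CPM of Fmod, Podn, Prelp and Dcn (above the line) and of summed marker lists (below it) in each library, relative to the mean over the 6 libraries, cold libraries left of ctrl libraries. Fmod, the mesothelial sum and, with smaller differences, the fibroblast and progenitor sum are high in cold 7, ctrl 5 and ctrl 10. The cilium and duct sums are high in the cold libraries.

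Around the members, 7 lists of related genes (104 genes, of which 95 were tested) were read from the fit over all genes. Only Igf1r, the receptor of insulin-like growth factor and a binding partner of decorin, was called. It was at 39.0, 52.1 and 46.0 CPM in cold libraries, against 32.1, 25.8 and 29.0 CPM in ctrl libraries, and rose by 0.66 on the log2 scale (SE 0.12, edgeR quasi-likelihood test, Benjamini-Hochberg adjusted p = 0.0367), higher in all 3 cold libraries. The call was absent without cold 12, cold 16, ctrl 6 or ctrl 10. In this fit, with the low-count filter and all libraries, none of the 95 was called lower, and 23 had an unadjusted p under 0.05. Over all 17852 genes tested, 2.89% were called by edgeR in either direction, and 3147 had an unadjusted p under 0.05. DESeq2 called 7 of the 95 (Ccn2, Chad, Igf1r, Sdc4 and Tsku higher, Egfr and Lrp1 lower), against 1340 of the 17852 genes. Without the low-count filter edgeR called 4, Egfr lower and Igf1r, Mmp3 and Sdc4 higher, against 924 of 34880 genes. The median log2 fold change of the 95 genes was -0.05, against -0.01 over all genes tested.

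Of the 8 other family genes, 7 were tested and none was called by edgeR with all libraries kept, and DESeq2 called Tsku and Chad higher. EdgeR called Chad higher without ctrl 5, and without ctrl 5 and cold 7 together. Tsku, which encodes tsukushi, a secreted protein made by liver and fat, was at 19.9, 21.0 and 32.9 CPM in cold libraries, against 15.9, 18.1 and 9.19 CPM in ctrl libraries, without overlap. Chad, which encodes the cartilage protein chondroadherin, was at 2.58, 7.75 and 6.01 CPM in cold libraries, against 2.64, 0.80 and 1.03 CPM in ctrl libraries, with cold 7 just under ctrl 5. Kera, the cornea member next to Lum, was at 0.04 CPM in cold 12 and at 0 in the other cold libraries and in every ctrl library.

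In the list of enzymes that build chondroitin and dermatan sulfate, 21 of 22 were tested, 0 were called by edgeR or DESeq2, and the median log2 fold change was -0.15, with a positive value in 4 of the 21. Chst14, the dermatan 4-O-sulfotransferase, was at 18.1, 19.7 and 20.1 CPM in cold libraries, against 23.0, 25.1 and 25.5 CPM in ctrl libraries. Its groups did not overlap, yet its adjusted p was 0.0746 (edgeR quasi-likelihood test, Benjamini-Hochberg). The keratan sulfate list had 5 of 6 tested and 0 called by either tool with all libraries kept, with a median of -0.04. Without ctrl 5 and cold 7 together, edgeR called B4galt1 of that list higher.

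Among 13 tested proteases and processing factors 0 were called by edgeR with the filter or by DESeq2, with a median of 0.04. Bmp1, the protease that trims the start of biglycan, was at 88.8, 84.9 and 97.5 CPM in cold libraries, against 122, 106.7 and 99.3 CPM in ctrl libraries. Mmp3 was at 1.88, 0.98 and 0.87 CPM in cold libraries, against 0.41, 0.09 and 0.46 CPM in ctrl libraries. The 11 collagens to which the members bind had a median of 0.00 and 0 calls by either tool with all libraries kept. Their CPM summed to 6821, 3978 and 4401 in cold libraries, against 5108, 4570 and 5777 in ctrl libraries. Cold 7 held the highest sum, whereas cold 12 and cold 16 lay below all ctrl libraries. The overlap of the groups thus rests on cold 7, and without that library edgeR called Col1a2 lower. Podn and Prelp were lower in each cold library, cold 7 included.

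In the list of bound factors and receptors, 19 of 20 were tested, 7 had a positive log2 fold change and the median was -0.12. Tgfb1, a growth factor that decorin and biglycan bind, was at 66.5, 56.7 and 62.3 CPM in cold libraries, against 75.4, 80.1 and 71.5 CPM in ctrl libraries. Egfr, a receptor bound by decorin, was at 55.1, 63.6 and 55.7 CPM in cold libraries, against 71.1, 72.1 and 72.9 CPM in ctrl libraries. Neither was called by edgeR with the low-count filter, and DESeq2 called Egfr. Of the other proteoglycans, 19 of 23 were tested and 0 were called by edgeR with the filter, with a median of -0.02. The cell-surface syndecans Sdc4 and Sdc3 had log2 fold changes of 0.35 and -0.31, and Sdc4 was called higher by DESeq2 and by edgeR without the filter.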

How the data were processed

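RNA-seq of epididymal fat from 3 cold and 3 ctrl mice was analysed from 1 deposited table per library. GRCm38, Salmon, cutadapt and bcl2fastq are named in the submitters' processing notes, and their versions were not given in the sources used here. Per the file headers, the authors' tables hold for each of 140658 transcripts an estimated count, not always a whole number, and a TPM. Transcript identifiers were joined to GENCODE M21 (140137 matched, and 521, with 0.124 to 0.394% of counts, named no gene and were left out). Coordinates are on GRCm38, counted from 1.

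Estimated counts were summed per gene and rounded to whole numbers, filtered with filterByExpr (minimum count 10, minimum total 15), scaled by TMM and fitted with edgeR 4.0.16 (glmQLFit with robust estimation, glmQLFTest, two-sided, no covariate) in R 4.3.3, with Benjamini-Hochberg adjustment over 17852 genes. SEs derive from the F statistic. Log2 CPM used a prior count of 2. TPM sums were compared between genes only as levels. P-values set the difference between groups against the spread between mice of 1 experiment. The steps were tested on simulated data. Libraries of a group differed from each other by more than sampling noise (chi-square over its degrees of freedom of 12.2 to 33.2), so each was counted.

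The members, the gene lists and the tests were chosen with earlier results of these data known. All members are described. From each other list, called genes and up to 4 with the smallest p could be named. Adipoq, Kera and the remaining smooth muscle and pericyte markers were named besides. Alternatives were RLE size factors, no filter, an offset for transcript length, DESeq2 1.42.0, TPM ratios, each library left out, and ctrl 5 and cold 7 left out together. Start windows come from RefSeq (GRCm38.p6).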

Additional observations from a re-analysis of the deposited data

How the results depend on the processing

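The members' log2 fold changes stayed within 1 within-group SD of the reported value in all 12 alternatives. With so few libraries per group, leaving out 1 can hardly move a value further than that SD. For those alternatives this measure therefore cannot show that a value is stable. Over the 12 alternatives Fmod, reported at -0.49, ran from -0.93 to -0.30, and Podnl1, reported at -0.85, from -1.36 to -0.37. Fmod, Lum, Prelp, Ogn, Podn and Podnl1 kept their sign in all 12 alternatives. Dcn turned sign without cold 7 or ctrl 6, Bgn without cold 7, without ctrl 5 and cold 7 together and by TPM, Aspn without cold 16, and Omd in 7 alternatives.

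The count of genes called was 516 over all genes, 1 among the 95 related genes and 1 among the members. Without a low-count filter these were 924, 4 and 2, without ctrl 5 and cold 7 they were 1230, 3 and 2, and with the DESeq2 Wald test 1340, 7 and 2. When 1 library was left out they ran from 0 to 1090, from 0 to 2 and from 0 to 2. Where a member besides Podn was called, it was Prelp without the filter and with DESeq2. It was Fmod without cold 7, and without ctrl 5 and cold 7 together. Over all genes 0 were called by edgeR without cold 12, ctrl 6 or ctrl 10 (2546, 3071 and 2835 at an unadjusted p under 0.05), 3 without cold 16, 696 without ctrl 5 and 1090 without cold 7. Leaving out a library leaves that group with 2 mice. The cause of the other differences was not tested. By CPM in place of TPM, the order of levels in cold mice was the same for all 10 members. In ctrl mice 1 of the 10, Ogn, kept its place. There Dcn and Prelp, Bgn and Podn, and Omd and Podnl1 swapped places, and Fmod rose above Lum and Aspn.

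No paired analysis was possible because the mouse numbers differ between the groups. Omd and Podnl1, with 12.0 to 55.8 counts per library, are limited by depth.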
